A study of Homo sapiens with 4 samples.

Results

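The plasminogen activation system of irradiated lung fibroblasts was examined after depletion of G3BP1, through 7 genes chosen by name for their roles. They are the activators PLAU and PLAT, the urokinase receptor PLAUR, the serpins SERPINE2 and SERPINB2, and the cell surface regulators of clotting F3 and THBD, out of 58219 genes in the deposited table. In the cells that received siG3BP1, PLAUR RNA was 2.09-fold and PLAU RNA 1.79-fold higher than in the cells that received siCTL, whereas F3 RNA was 2.6-fold lower. SERPINB2 also passed the test as higher, but its libraries overlapped between the groups. PLAT and SERPINE2 did not pass, and THBD had at most 9 reads in any library and was not tested. None of the 4 calls held in limma when siCTL A or siCTL B was left out, or when a correction for the GC content of genes was the only change, whereas those of PLAUR, F3 and SERPINB2 held with this correction and the library letter as a block.

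Total RNA was sequenced from WI-38 cells, a normal human fibroblast strain from embryonic lung, in 2 groups of 2 libraries each. The siG3BP1 group received an siRNA against exon 4 of G3BP1 and the siCTL group a scrambled siRNA. Both groups were transfected, exposed to 10 Gy of ionizing radiation to make them senescent and harvested at day 8, so no comparison with dividing cells is possible here. Each group rests on a single siRNA sequence and 1 cell strain. The libraries carry the letters A and B, and the labels do not say that these are separate cultures. The spread between these libraries, the only one the p-values can measure, may thus be technical. The reported limma p-values rest on that spread pooled over all genes of like level, not on the spread of each gene. In bulk RNA, fewer cells of a type and less RNA per cell cannot be told apart.

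The libraries held between 16944404 and 22745000 reads in genes. Values are given as normalized reads, that is, the reads of a gene divided by a size factor of its library. Where no read was seen, up to 3 reads remain possible in that library, a limit that covers counting error only. G3BP1 itself, the targeted gene, stood at 201.2 and 271.2 normalized reads in siG3BP1 A and B, against 2675 and 2522 in siCTL A and B, a log2 fold change of -3.47 with a standard error (SE) of 0.34. All 8 fibroblast markers were detected, with a summed level of 666534 and 683921 normalized reads in siG3BP1 A and B, against 462916 and 634334 in siCTL A and B. These markers did not move one way. In limma VIM passed as higher, COL3A1 and DCN passed as lower, and the other 5 did not pass. Over all tested genes 25.9% passed as higher and 30.5% as lower. Of 8 endothelial markers, CDH5, KDR, TIE1, CLDN5 and ERG were at the 3-read limit or under it in all libraries, and the summed level of 1009 and 1475 in the siG3BP1 libraries, against 4482 and 3019 in the siCTL libraries, came mostly from TEK. The 8 markers of monocytes and macrophages summed to 109.9 and 111.4 in the siG3BP1 libraries, against 83.82 and 78.44 in the siCTL libraries, with PTPRC, ITGAM, CD163 and AIF1 at the limit. This sum joins opposite directions, with log2 fold changes of 1.49 for LYZ and -0.72 for CD14. The 8 epithelial markers summed to 2142 and 1064 in the siG3BP1 libraries, against 932.4 and 997.1 in the siCTL libraries, almost wholly from KRT8 and KRT18, while CDH1, KRT5, KRT14 and SFTPC were at the limit. The part of other cell types in the values of the 7 genes was not tested.

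Plasmin, the main protease that dissolves fibrin, is made from plasminogen by urokinase (PLAU) or tissue-type plasminogen activator (PLAT). Urokinase works at the cell surface, where its receptor PLAUR holds it by a lipid anchor, and serpins such as protease nexin 1 (SERPINE2) and plasminogen activator inhibitor 2 (SERPINB2) trap the activators in inactive complexes. Fibroblasts use this system to turn over matrix, and several of its genes belong to the secretory program of senescent cells. Tissue factor (F3) and thrombomodulin (THBD) regulate the other side of the balance, the making of fibrin by thrombin. Tissue factor starts clotting, whereas thrombomodulin restrains it by turning thrombin into an activator of protein C.

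The siRNA against G3BP1 is shown because its seed could in principle also pair with other RNAs. It is printed 5′ to 3′ with its seed, bases 2 to 8, in capitals.
siG3BP1: uCAACAUGgcgaaucuuggtg
The first 19 bases of the printed strand are complementary to the G3BP1 transcript, at position 356. The 7-base site that pairs with the seed, CATGTTG, was found in the canonical transcript of none of the 7 genes. A 3′ UTR with this site is held by 20.3% of the 11849 tested genes with an annotated 3′ UTR.

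The promoters of PLAU, PLAUR, SERPINB2 and F3, the genes that passed the test, are shown as a description of their motif letters. Each window runs from 250 bases before to 50 after the RefSeq start on GRCh38.p14, 5′ to 3′ on the strand of the gene, with TGANTCA (the core bound by AP-1 factors), TATAAA (the TATA box) and GGGCGG (the GC box) in capitals on either strand.
PLAU promoter, chr10:73910882-73911181, plus strand: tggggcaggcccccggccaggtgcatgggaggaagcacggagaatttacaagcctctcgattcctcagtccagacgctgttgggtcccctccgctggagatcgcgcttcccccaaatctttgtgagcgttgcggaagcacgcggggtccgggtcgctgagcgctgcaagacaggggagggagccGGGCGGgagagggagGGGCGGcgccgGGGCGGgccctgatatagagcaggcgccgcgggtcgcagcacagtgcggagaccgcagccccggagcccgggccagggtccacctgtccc
PLAUR promoter, chr19:43670120-43670419, minus strand: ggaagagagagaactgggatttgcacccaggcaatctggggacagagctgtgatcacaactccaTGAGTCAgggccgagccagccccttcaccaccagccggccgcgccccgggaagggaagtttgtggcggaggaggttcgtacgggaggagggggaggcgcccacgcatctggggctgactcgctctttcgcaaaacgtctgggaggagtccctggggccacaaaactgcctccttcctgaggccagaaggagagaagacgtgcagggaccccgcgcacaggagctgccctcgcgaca
SERPINB2 promoter, chr18:63887455-63887754, plus strand: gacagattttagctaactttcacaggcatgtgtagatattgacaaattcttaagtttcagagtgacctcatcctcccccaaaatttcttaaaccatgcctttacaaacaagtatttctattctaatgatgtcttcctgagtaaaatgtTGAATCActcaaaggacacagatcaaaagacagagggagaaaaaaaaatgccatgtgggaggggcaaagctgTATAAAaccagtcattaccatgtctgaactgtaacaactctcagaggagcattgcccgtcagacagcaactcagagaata
F3 promoter, chr1:94541710-94542009, minus strand: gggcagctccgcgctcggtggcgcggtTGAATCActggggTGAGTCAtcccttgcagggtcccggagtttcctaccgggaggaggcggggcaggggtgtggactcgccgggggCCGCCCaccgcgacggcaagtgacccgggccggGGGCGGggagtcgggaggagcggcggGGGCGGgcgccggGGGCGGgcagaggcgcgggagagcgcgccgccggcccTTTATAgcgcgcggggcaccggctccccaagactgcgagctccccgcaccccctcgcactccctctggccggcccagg
Among 35116 promoter windows of this length, 7.71% held TGANTCA, 11.5% held TATAAA and 45% held GGGCGG. The F3 window held 2 copies of TGANTCA, 4 of GGGCGG and a TATAAA at -28 from the start. The PLAUR window held 1 copy of TGANTCA at -186, and the SERPINB2 window 1 copy at -102 with a TATAAA at -30. The printed PLAU window held 3 copies of GGGCGG and neither of the other motifs, a second PLAU window at another RefSeq start held none of the 3 motifs, and both windows of SERPINE2 held GGGCGG alone. These matches describe letters only. The part of any of these motifs in the differences between the groups was not tested.

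A second set of letters is shown because short-lived RNAs, such as those of cytokines and of tissue factor, often carry AU-rich elements. Each window has 30 bases of the 3′ UTR of the canonical transcript, read from GRCh38 with the Gencode annotation, with the pentamer ATTTA in capitals.
PLAU: aatATTTAtatttcactatttttATTTAta
PLAUR: ttattaattaatattcatattATTTAtttt
SERPINB2: ttttactttgttATTTAttattttatataa
F3: agataATTTATTTAatatactttaaataaa
THBD: actaaaatATTTAttttttttaagtATTTA
The 3′ UTR of SERPINB2 held 4 copies of ATTTA in 583 bases, or 6.86 per kb, and that of F3 held 6 copies in 1287 bases, or 4.66 per kb. PLAU had 2 copies in 929 bases, PLAUR 1 in 311 bases, SERPINE2 2 in 822 bases and THBD 9 in 2144 bases. The median over 11849 tested genes was 1.73 per kb, so each of the 7 genes lay above it, from 2.15 per kb in PLAU upwards. The longer element TTATTTATT was present in PLAUR, SERPINB2 and THBD, and in 9.81% of the tested genes. Over all tested genes, those with ATTTA had a median log2 fold change of -0.57 and those without it 0.84, and their 3′ UTRs had a median GC content of 39.6% and 53.1%.

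PLAU encodes urokinase, the activator that works on the cell surface (ENSG00000122861.15, chromosome 10, 73909177 to 73917497, plus strand of GRCh38). Its level was 38624 and 30596 normalized reads in siG3BP1 A and B, against 16038 and 22893 in siCTL A and B. Both siG3BP1 libraries were above both siCTL libraries, and the lower siG3BP1 library was closest to siCTL B. The means were 34610 ± 5677 in siG3BP1 and 19466 ± 4847 in siCTL (SD, n = 2 each). PLAU rose by 0.84 on the log2 scale (SE 0.32, 95% CI 0.21 to 1.48, limma adjusted p = 0.0206, by the Benjamini-Hochberg method). The call was lost under 11 of 18 alternatives, among them the correction for the GC content of genes (log2 fold change 0.25, limma adjusted p = 0.477) and the fit without any one of siG3BP1 A, siCTL A or siCTL B (adjusted p between 0.0837 and 0.467). The neighbouring gene C10orf55 lies on the opposite strand and shares 915 exonic bases with PLAU, and its own level was 126.1 to 237.5 normalized reads, far below that of PLAU.

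**Figure D1:**
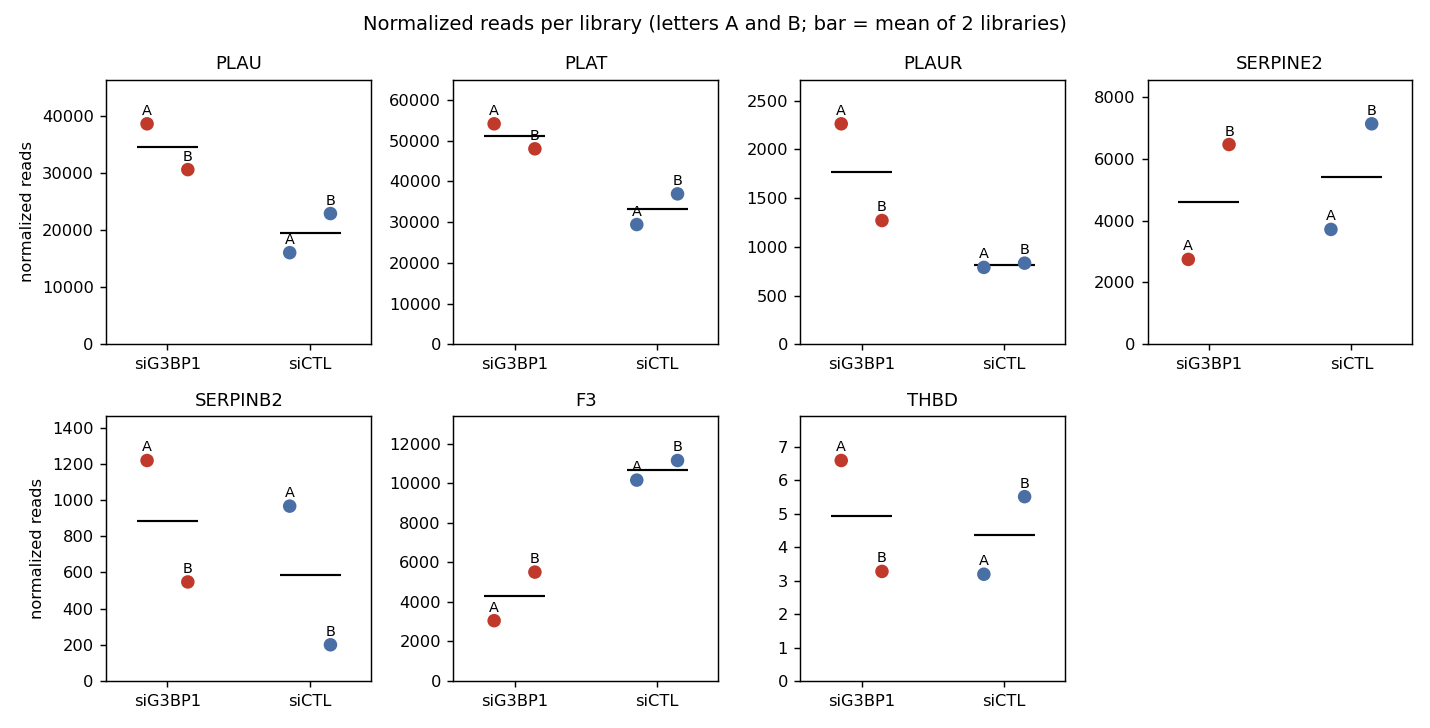
Normalized reads (y axis, from 0, a scale of its own in each panel) of the 7 genes in siG3BP1 libraries A and B (red, left) and siCTL libraries A and B (blue, right), with a bar at the mean of the 2 libraries. The siG3BP1 points lie above the siCTL points for PLAU, PLAT and PLAUR and below them for F3, and the points of SERPINE2, SERPINB2 and THBD overlap.

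PLAT encodes tissue-type plasminogen activator, the activator best known for its action on fibrin itself (ENSG00000104368.17, chromosome 8, 42175233 to 42207724, minus strand). It had 54159 and 48015 normalized reads in siG3BP1 A and B, against 29405 and 36944 in siCTL A and B. The groups did not overlap here either, and siCTL A was the lowest library, as for PLAU. The log2 fold change was 0.63 (SE 0.32, 95% CI -0.003 to 1.26), which did not pass the threshold (limma adjusted p = 0.0817). It passed under 2 of 18 alternatives, the correction for the length of all annotated exons (adjusted p = 0.0336) and the fit without siG3BP1 B (log2 fold change 0.72). After the correction for GC content, both siG3BP1 libraries were still above both siCTL libraries, at 15.78 and 15.47 on the log2 scale in siG3BP1 A and B, against 14.84 and 15.20 in siCTL A and B.

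PLAUR encodes the receptor that holds urokinase at the cell surface (ENSG00000011422.11, chromosome 19, 43646095 to 43670547, minus strand). It had 2263 and 1270 normalized reads in siG3BP1 A and B, against 788.7 and 832.2 in siCTL A and B. The siCTL libraries lay close together, and both siG3BP1 libraries were above them, A by more than B. The means were 1766 ± 702 in siG3BP1 and 810.5 ± 30.8 in siCTL (SD, n = 2 each). PLAUR rose by 1.06 on the log2 scale (SE 0.34, 95% CI 0.41 to 1.72, limma adjusted p = 0.00522). Its direction held in all 18 alternatives, between 0.56 and 1.48, and its call was lost in 4 of them: the correction for GC content (adjusted p = 0.169), scaling to library totals (0.0747), and the fits without siCTL A (log2 fold change 1.03, adjusted p = 0.33) or siCTL B (1.10, adjusted p = 0.279).

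SERPINE2 encodes protease nexin 1, an inhibitor of thrombin, urokinase and tissue-type activator (ENSG00000135919.12, chromosome 2, 223975112 to 224039319, minus strand). It stood at 2747 and 6468 normalized reads in siG3BP1 A and B, against 3718 and 7139 in siCTL A and B. The libraries separated by their letter rather than by siRNA, with library A at 0.425 of library B in siG3BP1 and 0.521 in siCTL, and the groups overlapped. The log2 fold change was -0.29 (SE 0.33, 95% CI -0.94 to 0.36, limma adjusted p = 0.452). Its sign turned in 5 of the 18 alternatives, so no direction can be given for SERPINE2.

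SERPINB2 encodes plasminogen activator inhibitor 2, much of which stays inside the cell that makes it (ENSG00000197632.8, chromosome 18, 63871692 to 63903890, plus strand). It had 1219 and 547.3 normalized reads in siG3BP1 A and B, against 966.7 and 199.8 in siCTL A and B. Library A exceeded library B 2.23-fold in siG3BP1 and 4.84-fold in siCTL, so the groups overlapped, with siCTL A above siG3BP1 B. The means were 883.3 ± 475 in siG3BP1 and 583.2 ± 542 in siCTL (SD, n = 2 each). SERPINB2 was called higher, with a log2 fold change of 0.89 (SE 0.34, 95% CI 0.23 to 1.55, limma adjusted p = 0.0182). That standard error, like that of every tested gene in this fit, comes from the trend over all genes of like level. The spread of SERPINB2 within groups was 1.27 on the log2 scale against a median of 0.30 over all tested genes. The call held in 6 of 18 alternatives. It was lost in the others, among them edgeR (adjusted p = 0.166), DESeq2 (adjusted p = 0.655) and the fit without any 1 of the 4 libraries, and without siCTL B the sign turned, to a log2 fold change of -0.24. SERPINB2 shares 547 exonic bases with an unnamed gene of a later annotation on the same strand, to which the deposited table gives no row.

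F3 encodes tissue factor, the receptor that starts clotting by binding factor VII (ENSG00000117525.13, chromosome 1, 94529225 to 94541800, minus strand). It had 3047 and 5505 normalized reads in siG3BP1 A and B, against 10159 and 11150 in siCTL A and B. Both siG3BP1 libraries were far below both siCTL libraries, and siG3BP1 A was the lowest. The means were 4276 ± 1738 in siG3BP1 and 10655 ± 701 in siCTL (SD, n = 2 each). F3 fell by 1.38 on the log2 scale (SE 0.33, 95% CI -2.03 to -0.73, limma adjusted p = 3.33e-04). Its direction held in all 18 alternatives, between -1.80 and -0.63. The call was lost with the correction for GC content (log2 fold change -0.63, adjusted p = 0.104), without siCTL A (-1.44, adjusted p = 0.193) and without siCTL B (-1.31, adjusted p = 0.228).

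THBD encodes thrombomodulin, which turns thrombin into an activator of protein C on endothelium (ENSG00000178726.6, chromosome 20, 23045633 to 23049741, minus strand). It had 6 and 4 reads in siG3BP1 A and B, against 4 and 9 in siCTL A and B, or 6.597 and 3.277 normalized reads in siG3BP1, against 3.193 and 5.515 in siCTL. These values lie close to the limit of 3 reads per library, the groups overlapped, and no difference was detectable at this depth. In a fit without the filter on low values the log2 fold change was 0.14 (SE 0.74, limma adjusted p = 0.914).

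Of the 7 genes, 6 passed the filter on low values, a mean of at least 10 normalized reads, and 4 of these passed the test, 3 higher and 1 lower. Over all 13422 tested genes, 56.4% passed, 25.9% as higher and 30.5% as lower. The groups did not overlap for 4 of the 6 genes, 3 with siG3BP1 above and 1 with it below, against 83.3% of all tested genes, 42.8% above and 40.5% below. Neither share sets these few genes apart from genes at large. On the recovered whole reads, edgeR called 3 of the 6 genes, against 55.5% of all tested genes, and DESeq2 called 3, against 50.4%. Without siG3BP1 A limma called 2 of the 6 genes, against 42.7% of all genes, and without siG3BP1 B it called 4, against 71.7%. Without siCTL A or without siCTL B it called none of the 6, against 0.946% and 0.127% of all genes. Both shares are of adjusted calls. They cannot be compared with the 2 of the 6 genes at an unadjusted p under 0.05 in each fit. The median log2 fold change of the 6 genes was 0.74, against 0.04 over all tested genes.

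The exonic GC content of a gene moved with its fold change in these libraries, with a Spearman correlation of 0.80 across 13350 genes, which are not independent replicates and share the same 4 libraries. PLAU and PLAUR, with 53.7% and 52.7% GC, belonged to the decile of genes between 51% and 54.2%, where the median log2 fold change was 0.62. In that decile of 1335 genes, 423 had a higher log2 fold change than PLAU and 174 a higher one than PLAUR. PLAT, with 48.3% GC, had 394 genes above it in its decile of 1334 genes, whose median was 0.27.

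The serpins and F3 lay in the part of the range where most genes had lower values in siG3BP1. F3, with 43.3% GC, was in a decile with a median log2 fold change of -0.75, and 170 of its 1335 genes had a lower value than F3. SERPINE2, with 44.7% GC, was in the same decile, with 378 genes above it. Of the 6 genes SERPINB2, with 42.2% GC, stood farthest from the genes of like GC content, with 25 of 1335 genes above it in a decile with a median of -1.07, although its libraries overlapped. THBD, which was not tested, has 54.7% GC.

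**Figure D2:**
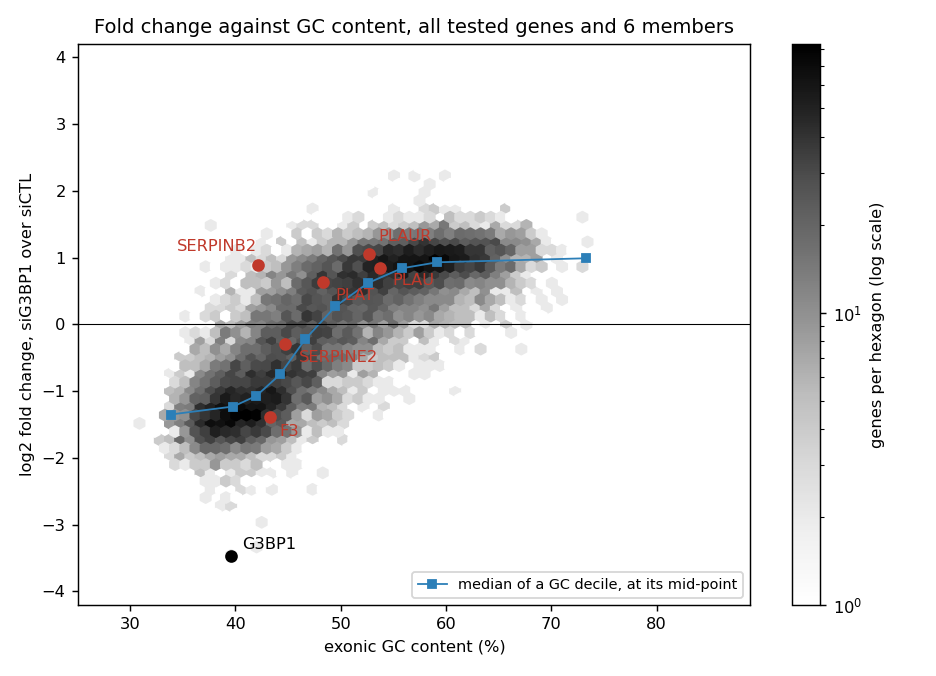
Log2 fold change of siG3BP1 over siCTL (y axis) against exonic GC content in percent (x axis) for all tested genes, as hexagons shaded by their number of genes on a log scale, with the median of each GC decile (blue squares), the 6 tested genes of the plasminogen and tissue factor group (red) and G3BP1 (black). PLAU lies close to the blue line at 0.84, PLAUR above it at 1.06, F3 below it at -1.38 and SERPINB2 far above it at 0.89.

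When the trend with GC content was removed from each library, none of the 6 tested genes passed in limma, against 0.00749% of all 13350 genes, or 1 gene. At an unadjusted p under 0.05 were 3 of the 6 genes and 3808 of all 13350 genes. On this corrected log2 scale F3 stood at 12.18 and 12.57 in siG3BP1 A and B, against 12.91 and 13.09 in siCTL A and B, so its groups still did not overlap. PLAUR stood at 10.79 and 10.16 in siG3BP1 A and B, against 9.89 and 9.94 in siCTL A and B, again without overlap. PLAU stood at 14.80 and 14.75 in siG3BP1 A and B, against 14.29 and 14.75 in siCTL A and B, and siCTL B thus reached the level of the siG3BP1 libraries. With the same correction and the library letter as a block, limma called 3 of the 6 genes, against 29.4% of all genes, namely PLAUR (adjusted p = 0.00746), F3 (adjusted p = 0.00618) and SERPINB2 (adjusted p = 4.71e-21). This fit treats the letters as if they were pairs, which the labels do not say, and its standard errors are pooled over all genes. For SERPINB2 the SE was 0.18, against 0.80 without the block (limma adjusted p = 0.202), and its corrected groups overlapped. The part of GC content in the differences was not tested beyond these corrected values.

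Per kb of canonical transcript, the 2 activators were the most abundant of the 7 RNAs. PLAT averaged 13759 normalized reads per kb over the 4 libraries, rank 46 among 15725 protein-coding genes, and PLAU averaged 11540, rank 63. F3 followed at 3249 per kb (rank 283), SERPINE2 at 2254 (rank 421), PLAUR at 941.8 (rank 1046), SERPINB2 at 384.7 (rank 2432) and THBD at 1.15 (rank 12824). PLAT was above PLAU, PLAU above F3, PLAUR above SERPINB2 and SERPINB2 above THBD in 4 of 4 libraries. F3 exceeded SERPINE2, and SERPINE2 exceeded PLAUR, in 3 of 4, so the order of these neighbours was not the same in every library. The 7 genes took 0.541% and 0.586% of all reads in siG3BP1 A and B, against 0.452% and 0.568% in siCTL A and B.

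Ratios within a library compare genes without the size factor. The ratio of PLAU to F3 per kb was 12.4 and 5.45 in siG3BP1 A and B, against 1.55 and 2.01 in siCTL A and B. Urokinase RNA thus exceeded tissue factor RNA in all 4 libraries and by more in those with siG3BP1. This ratio keeps the trend with GC content, which was 53.7% in PLAU and 43.3% in F3. After the correction for GC content, their log2 fold changes went from 0.84 and -1.38 to 0.25 and -0.63. The ratio of receptor to urokinase, PLAUR to PLAU, was 0.1 and 0.0711 in siG3BP1 A and B, against 0.0842 and 0.0623 in siCTL A and B, and the groups overlapped. PLAT to PLAU was 1.07 and 1.2 in the siG3BP1 libraries, against 1.4 and 1.23 in the siCTL libraries. The direction of this difference depended on the trend with GC content. As reported, PLAT rose by less than PLAU, with log2 fold changes of 0.63 and 0.84. After the correction for GC content it rose by more, with 0.60 and 0.25. No test was run on these ratios.

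Among 24 further genes of fibrinolysis and pericellular proteolysis, 16 were tested, of which 5 rose, 2 fell and 9 did not pass, where 25.9% of all tested genes rose and 30.5% fell. Their median log2 fold change was 0.53, against 0.04 over all tested genes. Those that rose were S100A10, LRPAP1, LRP1, ENO1 (enolase, which also binds plasminogen at the cell surface) and SERPING1 (the C1 inhibitor). After the correction for GC content the log2 fold changes of LRPAP1, ENO1 and SERPING1 were 0.38, 0.26 and 0.43. None of these 3 then passed in limma, with or without the letter as a block. S100A10, which with annexin A2 forms a plasminogen receptor at the cell surface, had 4853 and 3635 normalized reads in siG3BP1 A and B, against 2044 and 1571 in siCTL A and B, a log2 fold change of 1.23 (SE 0.33, limma adjusted p = 0.00138). Its partner ANXA2 had 26706 and 23113 in siG3BP1 A and B, against 16334 and 14112 in siCTL A and B, without overlap, and did not pass (log2 fold change 0.71, limma adjusted p = 0.0516). After the correction for GC content the log2 fold changes of S100A10 and ANXA2 were larger, 1.49 and 1.45 (limma adjusted p = 0.0663 for each). With the letter as a block the adjusted p was 1.84e-14 and 2.29e-09, in a fit that treats the letters as pairs and pools its standard errors over genes.

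The receptors that clear complexes of activator and inhibitor did not move one way. LRP1, the main such receptor, had 73009 and 52748 normalized reads in siG3BP1 A and B, against 33454 and 38562 in siCTL A and B, and its log2 fold change of 0.79 passed (limma adjusted p = 0.029) but was -0.05 after the correction for GC content. LRPAP1, the chaperone of this receptor family, rose by 0.98 on the log2 scale (limma adjusted p = 0.00889). VLDLR, a related receptor, had 35.18 and 117.2 normalized reads in siG3BP1 A and B, against 187.6 and 254.9 in siCTL A and B, and fell by 1.76 on the log2 scale (limma adjusted p = 2.86e-05). After the correction for GC content VLDLR was at -0.88 (limma adjusted p = 0.218, or 5.68e-04 with the letter as a block). SERPINB9, an inhibitor of granzyme B, was also called lower, at -1.19, although its groups overlapped. With the same correction it was at -0.46 (limma adjusted p = 0.616, or 0.148 with the letter as a block). The spread within groups was 0.89 for VLDLR and 1.16 for SERPINB9 on the log2 scale, against a median of 0.30 over all tested genes. Their p-values do not rest on these wider spreads. Plasminogen itself (PLG) and SERPINF2, an inhibitor of plasmin, had no read in any library, which allows up to 3 reads in each. SERPINA5, CPB2, ST14, HABP2 and KLKB1 were likewise at or under this limit.

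**Figure D3:**
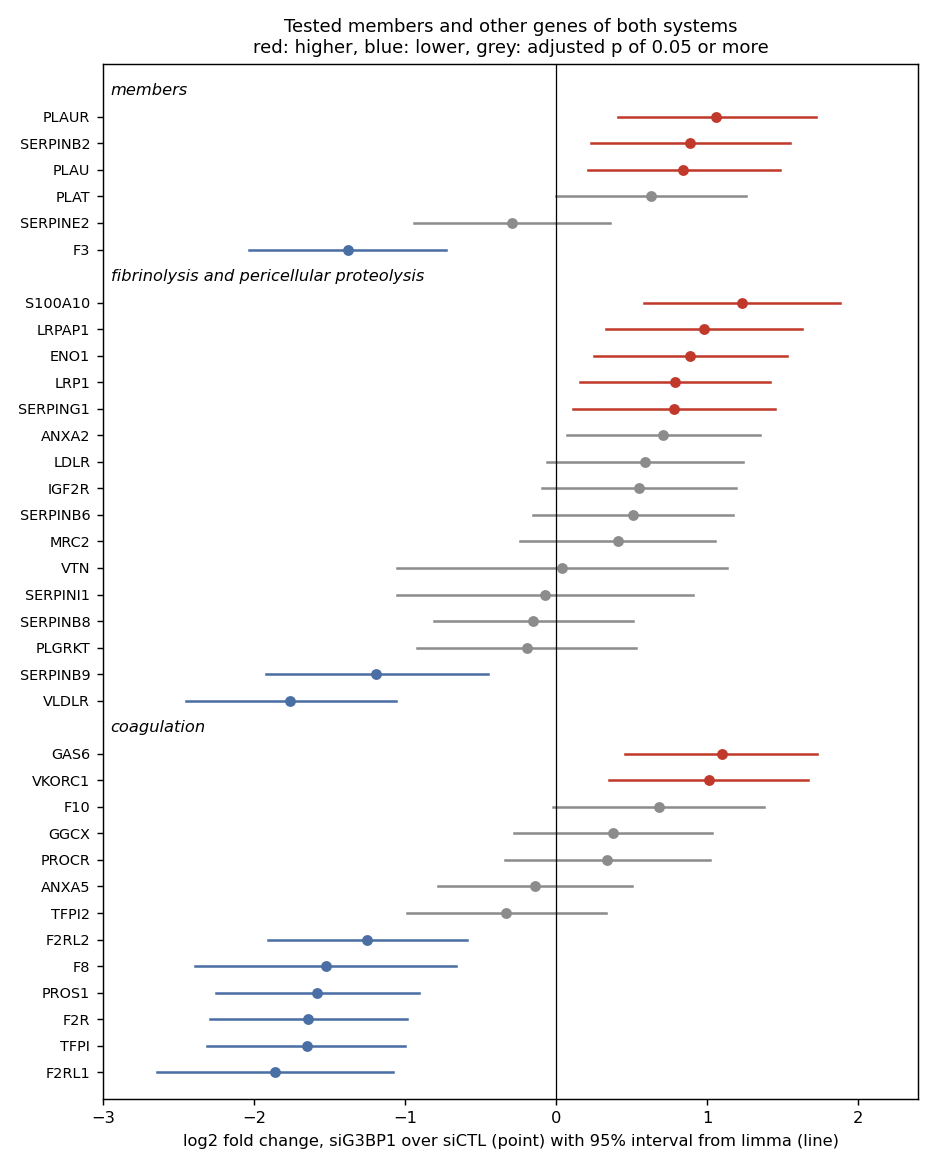
Log2 fold change of siG3BP1 over siCTL (x axis, points) with the 95% interval from limma (lines) for the 6 tested genes and the other tested genes of fibrinolysis and coagulation, in red where called higher, blue where called lower and grey where the adjusted p was 0.05 or more. PLAUR, SERPINB2 and PLAU lie right of 0, F3 lies left of 0 together with TFPI, F2R and F2RL1, and the interval of PLAT reaches 0.

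Around F3, the genes of coagulation held more falls than rises. Of 22 such genes, 13 were tested, of which 2 rose, 6 fell and 5 did not pass, where 25.9% of all tested genes rose and 30.5% fell. Their median log2 fold change was -0.33, against 0.04 over all tested genes. TFPI, the inhibitor of the complex of tissue factor and factor VII, had 878.5 and 1748 normalized reads in siG3BP1 A and B, against 3865 and 3941 in siCTL A and B. It fell by 1.65 on the log2 scale (SE 0.33, limma adjusted p = 2.88e-05), beside the fall of 1.38 of F3. The ratio of F3 to TFPI per kb was 5.82 and 5.29 in siG3BP1 A and B, against 4.41 and 4.75 in siCTL A and B. This ratio keeps the trend with GC content, which was 43.3% in F3 and 39.5% in TFPI. After the correction for GC content their log2 fold changes were -0.63 and -0.51, so that F3 no longer fell by less than TFPI.

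Of the 4 protease-activated receptors, through which thrombin and related proteases signal, F2R, F2RL1 and F2RL2 fell and F2RL3 was at the 3-read limit. F2R, the main thrombin receptor, had 1765 and 3031 normalized reads in siG3BP1 A and B, against 6520 and 7938 in siCTL A and B, a log2 fold change of -1.64 (limma adjusted p = 3.10e-05). F2RL1, a receptor cleaved by trypsin-like proteases, had 15.39 and 47.52 in siG3BP1 A and B, against 63.06 and 158.1 in siCTL A and B, a log2 fold change of -1.86 (limma adjusted p = 7.20e-05). The spread of F2RL1 within groups was 1.04 on the log2 scale, against a median of 0.30 over all tested genes. Its p-value does not rest on this wider spread. F2R, F2RL1 and TFPI have a GC content of 44.5%, 45% and 39.5%. Their log2 fold changes after the correction for GC content were -1.07, -1.37 and -0.51, with no adjusted p under 0.05. A block for the letter, added to that correction, brought each under this threshold (adjusted p = 1.79e-07, 1.25e-05 and 0.019), again with standard errors pooled over genes. F2RL2 was at -1.25 before and at -0.34 after the correction (adjusted p = 0.292, or 0.139 with the block). F8 (factor VIII) and PROS1 (protein S) fell as well, and were at -0.71 and -0.51 after the correction (limma adjusted p = 0.159 and 0.156, or 0.09 and 0.0403 with the block).

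The other arm held GAS6, a vitamin K-dependent ligand of TAM receptors, with 53050 and 35239 normalized reads in siG3BP1 A and B, against 19598 and 20822 in siCTL A and B (log2 fold change 1.10, limma adjusted p = 0.00303). VKORC1, the reductase that recycles vitamin K, rose by 1.01 on the log2 scale (limma adjusted p = 0.00797). With 61.7% and 58% GC, their log2 fold changes after the correction for GC content were 0.20 and 0.19. After that correction none of the 29 tested genes of both lists passed in limma. At an unadjusted p under 0.05 were 13 of them and 3808 of all 13350 genes. The same correction with the letter as a block called 13 of the 29, against 29.4% of all genes. Without any correction, edgeR called 14, against 55.5% of all genes, and DESeq2 called 15, against 50.4%. PROCR, the protein C receptor and partner of THBD in that pathway, had 189.1 and 196.6 normalized reads in siG3BP1 A and B, against 150.1 and 154.4 in siCTL A and B, and did not pass (log2 fold change 0.34, limma adjusted p = 0.393). F2, F7, F9 and PROC, which the liver makes, were at or under the limit of 3 reads in all libraries.

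**Figure D4:**
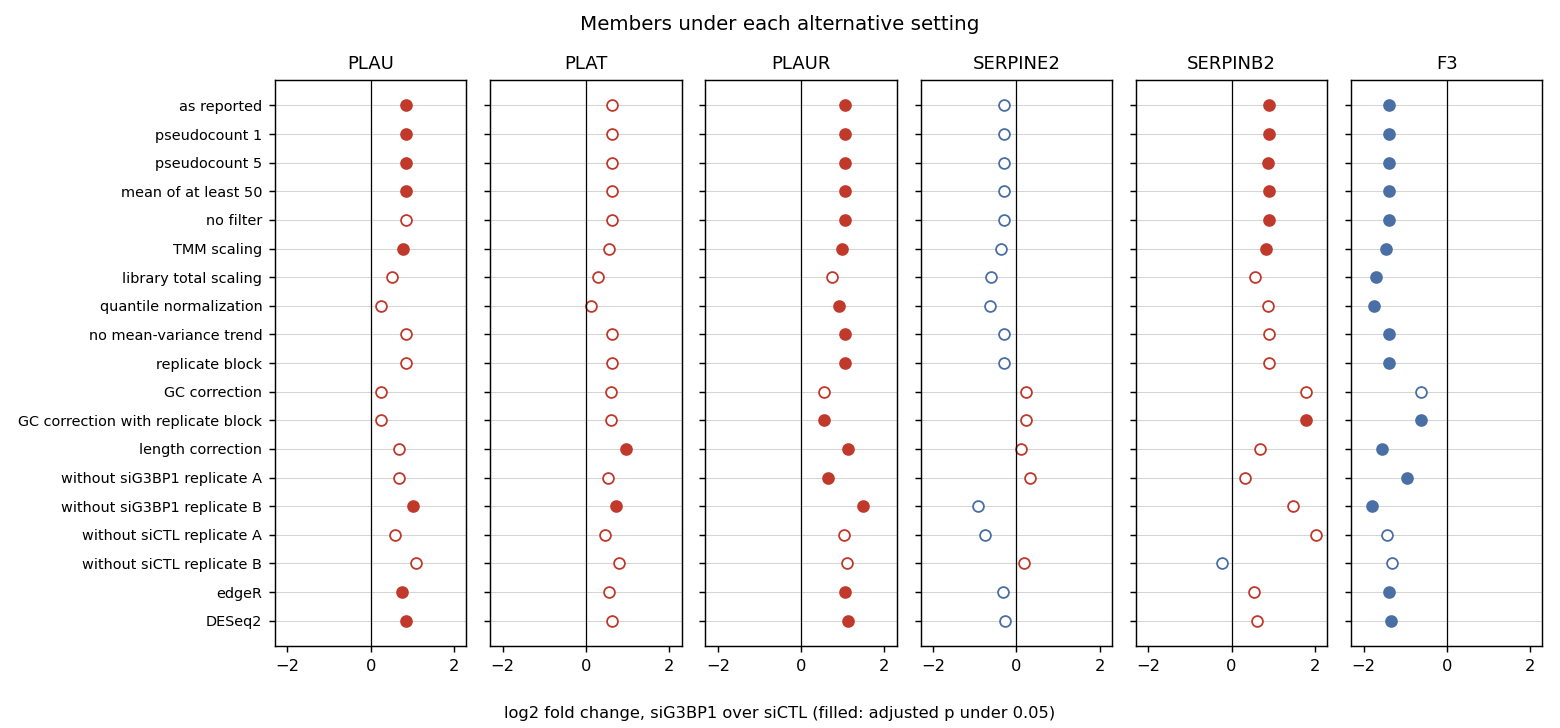
Log2 fold change of siG3BP1 over siCTL (x axis) of the 6 tested genes as reported (top line) and under the 18 alternatives (other lines), filled where the adjusted p was under 0.05. PLAU, PLAT, PLAUR and F3 keep their sign throughout, while SERPINE2 crosses 0 in 5 alternatives and SERPINB2 in 1.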

How the data were processed

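The authors trimmed the reads with Trimmomatic 0.35, aligned them with STAR to GRCh38, and normalized read counts with DESeq2 1.22.1. RSEM gave TPM or FPKM values, which were not used here. The submitters' notes also name TopHat2 2.0.10 and mouse builds, with no role. The libraries are described as stranded, and the strand setting of the counting is not given in the sources used here. The deposited per-library values are a signal, the reads of a gene over the size factor of its library, although a heading in the study's supplement calls them TPM. Undoing the division gave whole reads for 100% of values (tolerance 1e-06). The same table holds the authors' fold changes, log2 group means and p-values, which were not used.

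Genes with a mean of at least 10 (13422 of 58219) entered a two-sided limma fit (3.58.1, R 4.3.3) of log2(value + 0.5) with trend. The error of each gene was taken wholly from this trend of spread with level. P-values were adjusted by the Benjamini-Hochberg method over all tested genes, with a threshold of 0.05. Fold changes are on that scale. On the recovered reads, edgeR 4.0.16 called 7443 genes and DESeq2 1.42.0 called 6767. GC content and length came from a later Gencode release of GRCh38 than the one the authors used and covered 99.5% of tested genes. Promoters came from RefSeq and were examined for 5 of the 7 genes. The promoter source had no entry for THBD, and PLAT was left out of the sequence windows by choice. The correction for GC content or length, each over all annotated exons of a gene, took a loess trend (span 0.3) from each library. Depth was 16944404 to 22745000 reads in genes per library. Reads carry no molecular identifiers, so limits cover counting error only.

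Named are all 7 genes, G3BP1, the 3 genes with the smallest p in each direction of both other lists, direct partners of the 7, and the 2 genes with the nearest profile to each tested one. Genes outside this rule (ENO1, SERPING1, F2RL2, F8, PROS1, C10orf55 and genes at the limit) were named after their values were seen. A gene that this rule names is not reported here and was left out of the counts of its list. The genes and lists were chosen with earlier results of these data known. Alternatives were other pseudocounts, filters, scalings, GC or length corrections, the replicate letter as a block, leaving out each library, edgeR and DESeq2.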

Additional observations from a re-analysis of the deposited data

How the results depend on the processing

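Of all tested genes, 7576 passed; this count was 4972 with scaling to library totals, 1 with GC correction (3808 at an unadjusted p under 0.05), 3929 with GC correction and the replicate letter as a block, and between 17 (without siCTL B) and 9625 (without siG3BP1 B) when 1 library was left out. Among the 6 tested genes, 4 passed, against 1 with scaling to library totals. It was 2 each with quantile normalization, without the mean-variance trend and with the letter as a block. Over all 13422 tested genes these settings called 7267, 7017 and 6044, in that order. With GC correction 0 of the 6 passed (3 at an unadjusted p under 0.05), and without it edgeR and DESeq2 called 3 each. No call among the 6 held without siCTL A or without siCTL B, where most calls over all genes were lost as well. Among the other genes of fibrinolysis and coagulation, 15 passed, against 9 with scaling to library totals, 0 with GC correction (13 at an unadjusted p under 0.05, 13 called with the block added, and 14 called by edgeR and 15 by DESeq2) and between 0 (without siCTL B, with 7 at an unadjusted p under 0.05) and 21 (without siG3BP1 B) when 1 library was left out. The sign turned for SERPINE2 with GC correction (0.24, also 0.24 with the block added), with length correction (0.11), without siCTL B (0.18) and without siG3BP1 A (0.33), with a range of -0.91 to 0.33 when 1 library was left out, and for SERPINB2 without siCTL B (-0.24, in a range of -0.24 to 2.03). Scaling to library totals moved the median log2 fold change of all genes by -0.33, and 12.8% of its calls were higher, against 45.9% as reported. What the letters mark is not given for these libraries, so they were not taken as pairs. The differences of library A from library B correlated between the groups at 0.305 over 13422 genes, and at 0.477 over 13350 genes after GC correction. The block called 6044 genes in place of 7576, and with it PLAU (limma adjusted p = 0.0509) and SERPINB2 (0.0687) no longer passed, while no other call among the 6 changed. With GC correction and the block together, PLAUR, F3 and SERPINB2 passed. The causes of these changes were not tested. With 2 libraries per group, the fit without 1 library rests its spread on the remaining pair and assumes that the lone library varies alike.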

Other observations

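The genes whose profile over the 4 libraries was nearest to that of each gene, by Euclidean distance of centred log2 values among tested protein-coding genes, are given as a description. For PLAUR they were TBC1D10B and MYBBP1A, at distances of 0.011 and 0.012, and TBC1D10B had 2285 and 1290 normalized reads in siG3BP1 A and B, against 802.3 and 839 in siCTL A and B. For F3 they were ZNF33B at 0.033 and OSBPL6 at 0.039, for PLAU P3H4 at 0.036 and JMJD8 at 0.06, and for PLAT DVL2 at 0.026 and MLLT6 at 0.045. The nearest to SERPINE2 were B4GALNT2 at 0.068 and ZBED3 at 0.11. SERPINB2 had no near profile, the closest being KCTD4 at 0.51 and ADAM8 at 0.56.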
